A study of Mus musculus with 21 samples.

Results

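The data described here are the 14 of 21 mouse liver RNA-seq libraries that ask whether loss of Cse changed the liver transcriptome differently on a diet without cysteine than on a diet without tryptophan. The libraries were chosen by their titles as all replicates of 4 groups: WT on the no-cysteine (no-Cys) diet, 4 libraries; Cse KO on the no-Cys diet, 3 libraries; WT on the no-tryptophan (no-Trp) diet, 2 libraries; and Cse KO on the no-Trp diet, 5 libraries. The other 7 libraries are WT and Cse KO livers on the control diet, and they entered the fit only to share its estimate of spread. The value reported for each gene is a difference of genotype effects, that is, KO minus WT on the no-Cys diet, minus KO minus WT on the no-Trp diet, in log2 units. A positive difference means that the KO-minus-WT value was larger without cysteine than without tryptophan.

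Cse (gene symbol Cth) encodes cystathionine gamma-lyase, which cleaves cystathionine to release cysteine as the last step of trans-sulfuration. The KO line is on a mixed 129/C57BL/6 background. The comparison animals are labelled WT, whereas the text of the study describes its controls as heterozygous Cse mice. The controls may therefore carry 1 Cse allele or both and are called WT here only after the label. All animals were male and at least 9 weeks old, and all were calorie restricted, since the study adapted them to a restricted ration of control diet before the switch to the restricted test diet. The test diets were versions of 1 chemically defined chow that lacked cysteine or tryptophan and made up for it with more of the remaining amino acids, so the 4 groups share the restriction, the sex and the base diet, and differ in genotype and in the amino acid left out. The no-Trp groups were included by the study to separate responses to cysteine loss from responses to the loss of any essential amino acid.

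A cell short of an amino acid accumulates uncharged tRNA, which activates the kinase GCN2. GCN2 phosphorylates the initiation factor eIF2 and thereby favours translation of the transcription factor ATF4, whose targets make up the integrated stress response (ISR): amino acid synthesis, amino acid uptake and tRNA charging. Cysteine is also the limiting precursor of glutathione. Electrophiles that escape glutathione modify KEAP1, a sensor protein, and release the transcription factor NRF2, which induces glutathione transferases, quinone reductases and ferritins, called here the oxidative stress response (OSR). Tryptophan is not a precursor of glutathione, and it cannot be made by mice of either genotype, whereas cysteine is essential only in the KO.

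Cth was measured first as a check of the labels. It stood at 260, 263, 253 and 225 CPM (counts scaled to library sizes corrected by TMM) in WT no-Cys livers and at 8.12, 6.34 and 7.33 CPM in KO no-Cys livers. On the no-Trp diet the 2 WT livers held 452 and 108 CPM, and the 5 KO livers 9.61 to 13.7 CPM. Every KO library was below every WT library on both diets. The genotype effect on Cth was -5.12 ± 0.37 (SE) without cysteine and -4.56 ± 0.31 without tryptophan, and their difference of -0.56 ± 0.45 was not called (adjusted p = 0.525, edgeR). The WT no-Trp pair was far apart in this gene. The difference was -1.93 without WT no-Trp replicate 1 and 0.13 without WT no-Trp replicate 2, so its size and sign depended on that pair.

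The 14 libraries held 8889951 to 20644644 counts, with TMM factors of 0.909 to 1.14 and a mitochondrial share of 3.41 to 7.67%. The 2 WT no-Trp libraries differed more than 2-fold in 6.01% of the 9845 well-expressed genes, against 0.691 to 3.06% in the pairs of every other group, and they had the lowest quality weights (0.453 and 0.466). Every difference below rests on these 2 libraries, and of the 170 named genes with a called difference, 74 were not called without WT no-Trp replicate 1, 42 without WT no-Trp replicate 2 and 71 without KO no-Cys replicate 3. Hepatocyte markers were abundant throughout, with albumin at 24600 to 66400 CPM and Cyp2e1 at 8420 to 13400 CPM. Of 10 hepatocyte markers, 2 had a called negative difference, Ttr (-0.99 ± 0.18) and Trf (-1.77 ± 0.38), beside 3.03% of all genes tested. Of 47 markers of other cell types, edgeR and voom called 0 and DESeq2 called 1, while 3 had an unadjusted edgeR p under 0.05. Their values were nevertheless mostly below 0, in 11 of 12 Kupffer and leukocyte markers (median -0.46), 9 of 9 stellate and 6 of 6 bile duct markers, and in 8 of 10 hepatocyte markers (median -0.55). The part of these shifts in the negative differences reported here was not tested. In bulk tissue, fewer cells of a type and less RNA per cell cannot be told apart.

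Of 14370 genes tested, 912 (6.35%) had a genotype effect that differed between the diets: 477 (3.32%) with a positive and 435 (3.03%) with a negative difference, by edgeR's quasi-likelihood test at an adjusted p under 0.05. At an unadjusted p under 0.05 there were 3037. The median over all genes was 0. Scaling by library totals alone moved that median to 0.192 and the calls to 1023 positive and 233 negative, so that 81.4% instead of 52.3% were positive, and directions are reported relative to the TMM scale. Among the called genes, 198 positive and 220 negative differences were larger than 1 on the log2 scale, 56 and 73 were larger than 2, and 24 and 29 were larger than 3. The genotype effects behind these differences were unequal in extent. Without cysteine, 4055 genes (28.2%) differed between KO and WT, 2130 higher (14.8%) and 1925 lower (13.4%) in KO. Without tryptophan, 28 genes (0.195%) did, 10 higher (0.0696%) and 18 lower (0.125%), in a comparison with 2 WT libraries. Leaving out WT no-Trp replicate 2, the no-Trp count became 230, and without replicate 1 it was 14.

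**Figure D1:**
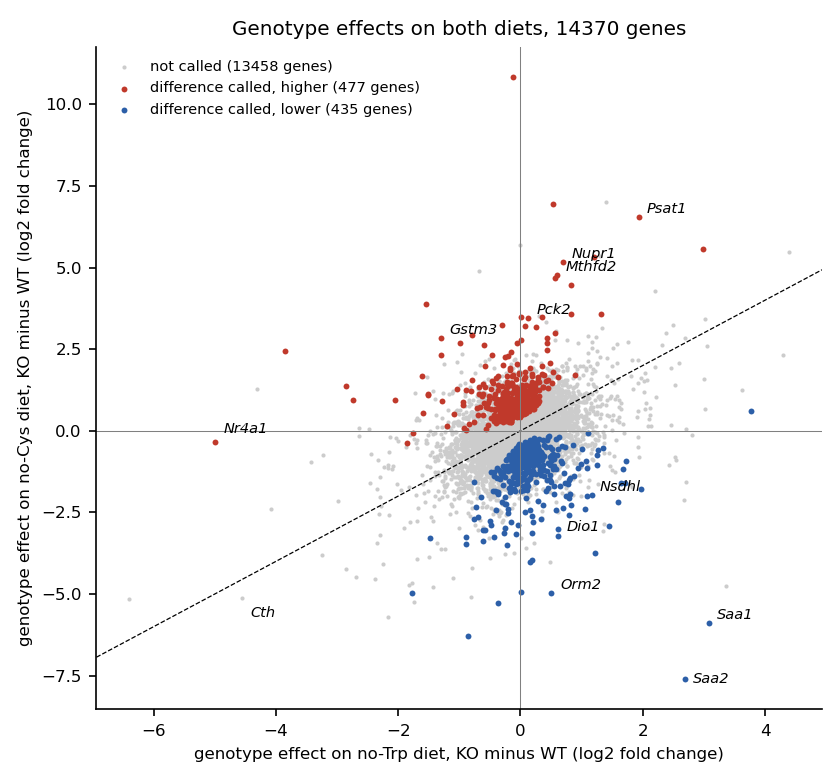
Each point is 1 of 14370 genes, with the KO-minus-WT log2 fold change on the no-Trp diet on the x axis and on the no-Cys diet on the y axis; the dashed line marks equal effects. The 477 genes with a called positive difference lie above the line and the 435 with a called negative difference below it, most of them spread along the y axis, whereas Cth lies far from 0 on both axes and Nr4a1 on the x axis.

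Most called genes were set apart by the KO no-Cys livers. All 3 KO no-Cys libraries lay above all 11 others in 302 of the 477 genes with a positive difference (63.3%) and below them in 262 of the 435 with a negative difference (60.2%). Over all genes tested these shares were 6.86% and 5.46%. The 4 WT no-Cys libraries lay below all others in 99 of the positive genes and above all others in 114 of the negative genes, beside 1.54% and 1.95% of all genes. The 2 WT no-Trp libraries stood above all others in 3 positive genes and below all others in 7 negative genes, beside 0.849% and 0.842% of all genes. The 5 KO no-Trp libraries stood below in 4 positive and above in 3 negative genes, beside 0.16% and 0.132% of all genes. These counts describe the called genes and are no separate test, because the same libraries made the calls.

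**Figure D2:**
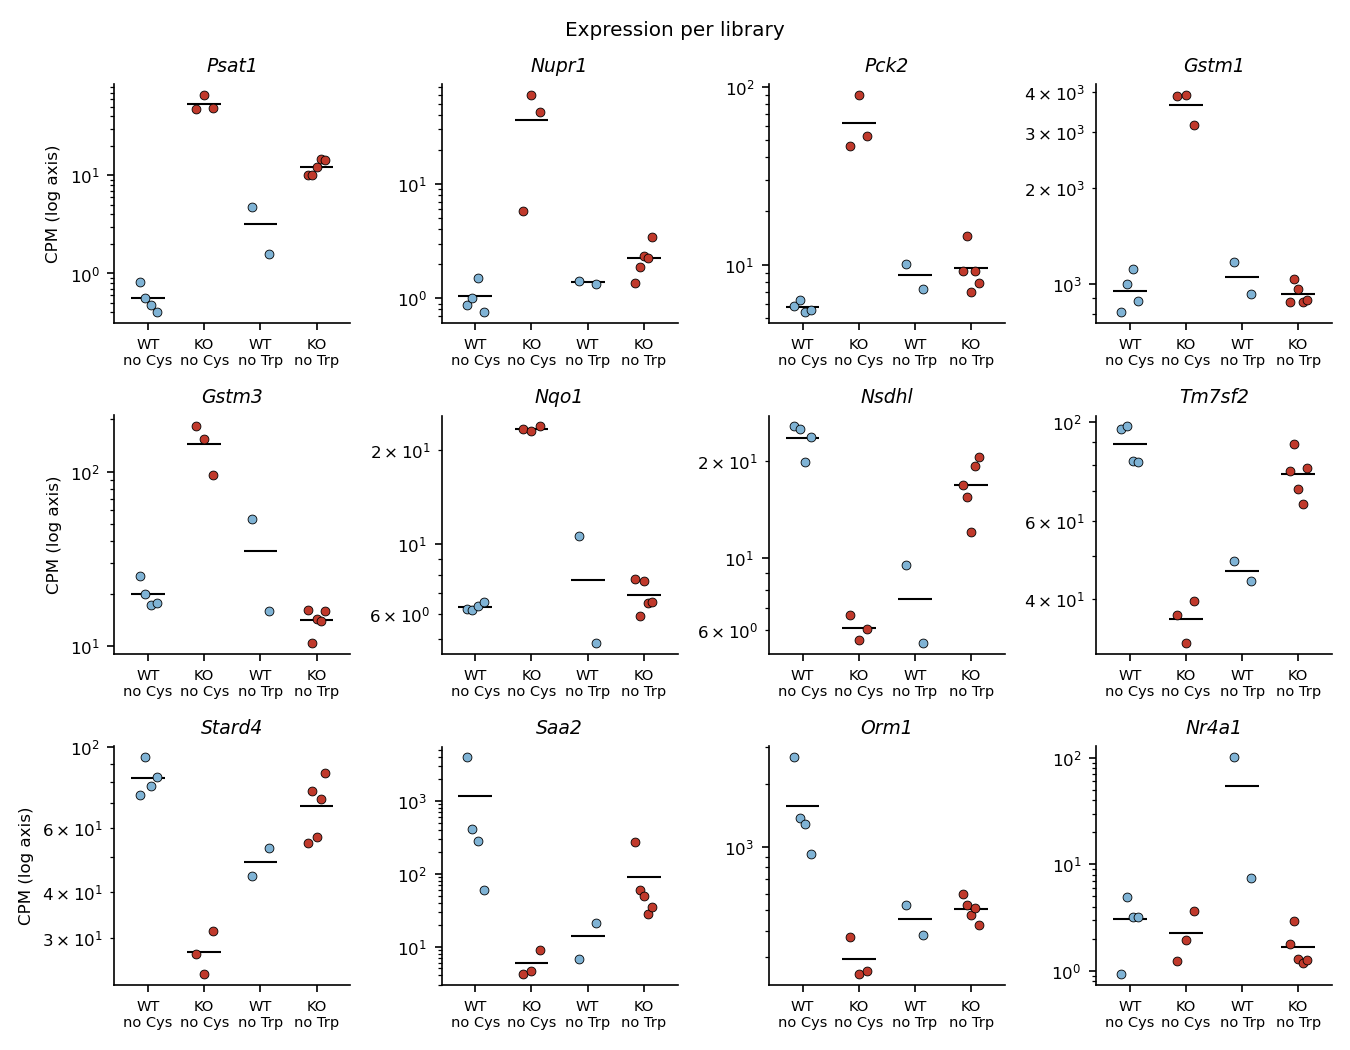
Each panel gives 1 gene, with 1 point per library in CPM on a log axis and a horizontal line at the arithmetic mean of the group; blue is WT and red is KO. Psat1, Nupr1, Pck2, Gstm1, Gstm3 and Nqo1 are highest in the 3 KO no-Cys libraries, Nsdhl, Tm7sf2 and Stard4 are low in KO no-Cys and WT no-Trp libraries, and the high Nr4a1 mean comes from 1 WT no-Trp library.

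Most ISR genes had a larger genotype effect without cysteine than without tryptophan. Of the 13 that the study followed, 9 had a positive difference and none a negative one, beside 3.32% of all genes with a positive call. Their median genotype effect was 2.70 without cysteine and 0.36 without tryptophan, and the median of their differences was 2.57. The study picked this list on livers of the same design, in larger groups than those here, which may include these libraries. The direction of the list is therefore not taken as independent evidence. With limma-voom, 4 of the 13 were called. Psat1 (ENSMUSG00000024640, GRCm38 chr19:15904678-15947337, minus strand), the phosphoserine aminotransferase of serine synthesis, showed the largest difference among them. It held 0.403 to 0.817 CPM in WT no-Cys livers, 47.5, 65.5 and 49.0 CPM in KO no-Cys livers, 4.76 and 1.57 CPM in WT no-Trp livers and 10.1 to 14.6 CPM in KO no-Trp livers. The KO libraries were above the WT libraries on both diets, and the gap was wider without cysteine (difference 4.62 ± 0.65, adjusted p = 0.00033).

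Asns, asparagine synthetase, was the only ISR gene whose genotype effect was called on both diets. It stood at 0.950 to 6.18 CPM in WT no-Cys, 146, 181 and 147 CPM in KO no-Cys, 6.04 and 2.39 CPM in WT no-Trp and 24.9 to 43.3 CPM in KO no-Trp livers. The genotype effect was 5.56 ± 0.40 without cysteine and 2.99 ± 0.47 without tryptophan (adjusted p = 0.0061), with a difference of 2.57 ± 0.58 (adjusted p = 0.0106) that was not called without WT no-Trp replicate 1. Atf5, a transcription factor of the ISR and the mitochondrial stress response, had the lowest adjusted p of the list, with a difference of 2.57 ± 0.28 (adjusted p = 3.22e-05) and 312 to 343 CPM in WT no-Cys, 1240, 2170 and 1790 CPM in KO no-Cys, 629 and 457 CPM in WT no-Trp and 374 to 630 CPM in KO no-Trp livers. The KO no-Cys livers were above the rest and the 2 no-Trp groups overlapped.

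Mthfd2, a mitochondrial folate enzyme, had a difference of 4.17 ± 0.75, Pycr1, which makes proline, 2.94 ± 0.57, and the cationic amino acid transporter Slc7a1 3.13 ± 0.77. Slc3a2, the heavy chain shared by several amino acid exchangers, rose from 41.1 ± 3.93 (SD, n = 4) to 112 ± 54.1 CPM (n = 3) without cysteine, beside 42.2 ± 6.28 (n = 2) and 36.0 ± 4.02 CPM (n = 5) without tryptophan, a difference of 1.67 ± 0.31 (adjusted p = 0.00289). The pseudokinase gene Trib3 (2.27 ± 0.58) and Ddit3, which encodes the stress factor CHOP (1.30 ± 0.37, adjusted p = 0.0426), were called too. Of these, Mthfd2 lost its call without WT no-Trp replicate 1, Slc7a1 and Trib3 without WT no-Trp replicate 2 or KO no-Cys replicate 3, and Ddit3 was called in 4 of 14 fits with a library removed. Ddit3 lies within a stretch that also holds Mars, and whether the counting used strand is not stated. The 4 members not called were Slc1a4 (1.87 ± 0.65), Atf6 (0.32 ± 0.18) and the 2 secreted factors of the list.

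Fgf21, a liver hormone induced by protein shortage, was not called in any of the fits tried despite a difference of 4.07 ± 1.51 (adjusted p = 0.117). Its KO no-Cys livers held 6.88, 43.3 and 34.8 CPM against 0.475 to 0.901 CPM in WT, and its no-Trp livers 0.268 and 2.61 CPM in WT against 1.19 to 5.65 CPM in KO. Gdf15, another stress hormone, ranged over 3.61 to 19.5 CPM in KO no-Cys livers and 2.67 to 8.33 CPM in WT no-Cys livers, and its difference was 0.77 ± 0.84 (adjusted p = 0.655). The KO no-Cys livers were not alike in this response: replicate 3 was the highest of the 3 in all 13 ISR genes and replicate 1 the lowest in all 13.

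Of 23 regulators and effectors of the ATF4 axis, 8 had a positive and none a negative difference, with a median of 0.77, beside 3.32% of all genes with a positive call. Atf5, Trib3 and Ddit3 among these 8 were already counted with the ISR genes. The stress-induced chromatin protein gene Nupr1 (difference 4.48 ± 0.87) was at 0.756 to 1.52 CPM in WT no-Cys livers, 5.75, 59.7 and 42.9 CPM in KO no-Cys livers, 1.41 and 1.34 CPM in WT no-Trp livers and 1.36 to 3.43 CPM in KO no-Trp livers. Chac1, which degrades glutathione, had a difference of 2.79 ± 0.65 that was not called without KO no-Cys replicate 3 or WT no-Trp replicate 2. Eif4ebp1, a translational repressor, had a smaller but tight difference of 0.75 ± 0.14 (adjusted p = 0.00329), and eIF2 alpha itself (Eif2s1) one of 0.64. The count was 3 without KO no-Cys replicate 3, 5 without WT no-Trp replicate 1 and 2 with limma-voom.

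ATF4 binds composite C/EBP-ATF elements, one form of which reads TGATGNAA. That motif was searched on both strands in the 250 bases before each RefSeq transcription start (GRCm38.p6). It was in 1134 of 32851 promoters (3.45%) and in 256 of the 10186 tested genes with a promoter in the table (2.51%). It was in 14 of 345 genes with a called positive difference (4.06%), in 8 of 316 with a called negative difference (2.53%), in 3 of 12 ISR genes of the study and in 3 of 12 cytosolic tRNA synthetase genes. It was also in 2 of 12 sterol regulators and carriers, 1 of 16 cholesterol synthesis enzymes and 1 of 15 serine and folate genes. None of the 8 OSR genes, 27 other NRF2 targets, 20 glutathione transferases and 57 ribosomal protein genes with a promoter held it. The windows printed here are stretches of 4 promoters of genes with a called positive difference and no annotated exon in the window, shown 5′ to 3′ on the strand of the gene with the match in capitals. Pycr1 holds the motif as spelled, and the other 3 hold its reverse complement. The match begins 193 bases before the start of Chac1, 103 before those of Pycr1 and Pck2, and 30 before that of Gars, and the Pck2 stretch lies within the gene body of Gm10876.
Chac1, chr2:119351004-119351101, plus strand: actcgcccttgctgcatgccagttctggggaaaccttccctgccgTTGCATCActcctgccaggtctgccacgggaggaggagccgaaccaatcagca
Pycr1, chr11:120643799-120643896, minus strand: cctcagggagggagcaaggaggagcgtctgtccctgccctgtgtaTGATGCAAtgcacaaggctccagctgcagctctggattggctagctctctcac
Pck2, chr14:55540118-55540215, plus strand: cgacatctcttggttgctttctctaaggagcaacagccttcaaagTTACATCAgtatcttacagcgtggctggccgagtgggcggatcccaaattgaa
Gars, chr6:55037926-55038000, plus strand: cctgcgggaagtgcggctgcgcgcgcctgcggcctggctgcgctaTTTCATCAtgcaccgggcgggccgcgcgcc
A match is a description of these letters only.

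Pck2, the mitochondrial phosphoenolpyruvate carboxykinase whose promoter stretch is shown among them, gave one of the tightest large differences, 3.32 ± 0.32 (adjusted p = 1.26e-05). It was at 5.41 to 6.31 CPM in WT no-Cys, 46.5, 89.3 and 52.7 CPM in KO no-Cys, 10.1 and 7.32 CPM in WT no-Trp and 7 to 14.5 CPM in KO no-Trp livers. The no-Trp groups overlapped and the KO no-Cys livers stood alone. In the serine and folate list, 6 of 18 genes were positive and 1 was negative, beside 3.32% and 3.03% of all genes. The positive ones were Phgdh, Psat1, Mthfd2, Mthfd1l, Aldh1l2 and Pck2, of which Phgdh is the serine synthesis entry, Psat1 its transaminase, and Mthfd2, Mthfd1l and Aldh1l2 mitochondrial folate enzymes. The positive count was 3 without WT no-Trp replicate 1, Aldh1l2 was called in 3 of 14 fits with a library removed, and Phgdh, at no more than 2.05 CPM in the 14 libraries, lost its call without KO no-Cys replicate 3, without WT no-Trp replicate 2, with DESeq2 and with the replicate block.

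Cytosolic tRNA synthetases load amino acids onto tRNA. All 20 had positive values, 11 were called, beside 3.32% of all genes called positive, and the median difference was 0.74, from a median genotype effect of 0.91 without cysteine and 0.14 without tryptophan. Gars, the glycyl enzyme, went from 38.1 ± 3.33 (SD, n = 4) to 129 ± 19.8 CPM (n = 3) without cysteine and was 45.1 ± 10.1 (n = 2) and 51.7 ± 4.61 CPM (n = 5) without tryptophan, a difference of 1.56 ± 0.18 (adjusted p = 4.35e-05). Sars, the seryl enzyme, differed by 1.31 ± 0.18 (adjusted p = 0.000253), and Cars, the cysteinyl enzyme, by 1.26 ± 0.32 (adjusted p = 0.0212), which was not called without KO no-Cys replicate 3, without WT no-Trp replicate 2 or with limma-voom. Without KO no-Cys replicate 3, 5 of the 20 were called. That library was the highest of the 3 KO no-Cys livers in 17 of the 20 genes.

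Of 77 ribosomal protein genes, 32 were positive, none negative and 45 not called, beside 3.32% of all genes called positive, 74 had positive values, and the median difference was 0.56. The median genotype effect was 0.36 without cysteine and -0.19 without tryptophan. Rpl3, of the large subunit, was at 195 ± 14.8 CPM (SD, n = 4) in WT no-Cys and 424 ± 55.3 CPM (n = 3) in KO no-Cys livers, and at 270 ± 7.42 (n = 2) and 266 ± 34.7 CPM (n = 5) without tryptophan (difference 1.14 ± 0.16, adjusted p = 0.000403). Rpl12 differed by 1.27 ± 0.19, and there the KO no-Trp livers were below both WT no-Trp livers. The count of 32 was 14 without KO no-Cys replicate 3 and 17 without WT no-Trp replicate 1. Ribosomal protein genes have many processed copies in the genome, and how reads shared with them were counted is uncertain. Chaperones and sensors of the unfolded protein response had a median difference of 0.49, but 1 of 25 was called, Derl1 (0.83 ± 0.15), and 7 under library totals alone.

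The OSR genes of the study formed the other large positive block. Of 8, 6 were positive and none negative, beside 3.32% of all genes. The median difference was 1.87, from median genotype effects of 1.90 without cysteine and 0.06 without tryptophan. This list too was picked by the study on livers that may include these libraries. All 3 KO no-Cys livers were above all 11 others in all 8 genes, beside 6.86% of all genes. Gstm1 (ENSMUSG00000058135, chr3:108012255-108017973, minus strand), an abundant mu-class glutathione transferase, had the lowest adjusted p of all named genes. It was at 813, 1000, 1110 and 880 CPM in WT no-Cys, 3870, 3900 and 3140 CPM in KO no-Cys, 1170 and 928 CPM in WT no-Trp and 876 to 1030 CPM in KO no-Trp livers. The other 3 groups overlapped, and the difference was 2.11 ± 0.19 (adjusted p = 4.94e-06), between 1.94 and 2.27 whichever library was left out.

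Gstm3 had the largest difference of the glutathione transferases, 4.14 ± 0.44 (adjusted p = 3.06e-05), with 182, 153 and 95.4 CPM in KO no-Cys livers against 17.3 to 25.1 CPM in WT no-Cys livers. On the no-Trp diet WT replicate 1 held 53.9 and replicate 2 16.0 CPM, and the KO livers 10.4 to 16.2 CPM, so that the size of the difference, though not its call, depended on the WT library used (3.01 to 4.76). Nqo1, a quinone reductase, was at 23.2, 22.9 and 23.7 CPM in KO no-Cys livers, 6.19 to 6.55 CPM in WT no-Cys livers, 10.6 and 4.86 CPM in WT no-Trp livers and 5.94 to 7.76 CPM in KO no-Trp livers (difference 2.04 ± 0.28). Gstm2 (1.71 ± 0.28), Gstm4 (1.38 ± 0.19) and the sulfiredoxin gene Srxn1 (0.98 ± 0.23) were also called. The mu-class genes lie side by side on chromosome 3 and are near copies, so reads may have been split among them. Gsta2 (1.55 ± 0.46, adjusted p = 0.0504) and Gsta1 (2.91 ± 0.96, adjusted p = 0.0749) fell just outside the threshold, and the KO no-Trp livers held 19.7 to 43.4 CPM of Gsta2 against 17.9 and 6.05 CPM in WT.

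In a wider list of 31 NRF2 targets, 8 were positive and none negative, beside 3.32% of all genes, with a median difference of 0.38. Without WT no-Trp replicate 1 the median was 0.04 and 5 were called, and without WT no-Trp replicate 2 the count was 12. The 8 were Srxn1 and Nqo1, counted above among the OSR genes, the epoxide hydrolase Ephx1 (1.68 ± 0.31, and 0.76 without WT no-Trp replicate 1), the oxidase Aox1, the export pumps Abcc3 (1.20 ± 0.17) and Abcc4 (2.41 ± 0.42), and both ferritin subunits. Ferritin heavy chain Fth1 was at 2190 ± 63.4 (SD, n = 4) in WT no-Cys and 4420 ± 257 CPM (n = 3) in KO no-Cys livers, against 2390 ± 466 (n = 2) and 2450 ± 220 CPM (n = 5) on the no-Trp diet. Among 22 glutathione transferases of all classes, 5 were positive, beside 3.32% of all genes, and 1 negative, Gstk1 of the mitochondrial kappa class, which was not called under library totals alone, and the list median of -0.01 became 0.18 under that scaling. The NRF2 element spelled TGACNNNGC was in 7 of 27 promoters of these targets and in none of the 8 OSR genes, beside 10.2% of all promoters and 13.9% of those of the tested genes.

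Few genes of sulfur metabolism itself were called, in lists too small to set apart from the 6.35% of all genes. Of 17 trans-sulfuration and methionine cycle genes, edgeR and voom called 0 and DESeq2 called 1, while 3 had an unadjusted edgeR p under 0.05. Of 13 genes of cysteine, taurine and sulfide metabolism, 1 was called, the sulfurtransferase Mpst (-0.51, adjusted p = 0.0445), in 3 of 14 fits with a library removed. The betaine methyltransferase gene Bhmt came nearest of the former, at -1.06 ± 0.32 (adjusted p = 0.054). In glutathione turnover, Chac1 and Ggct were positive and Gpx1, the main selenium-dependent peroxidase of the liver, was negative. Gpx1 was at 1880 ± 199 CPM (SD, n = 4) in WT no-Cys, 1160 ± 117 (n = 3) in KO no-Cys, 1850 ± 595 (n = 2) in WT no-Trp and 2250 ± 190 (n = 5) in KO no-Trp livers (difference -0.97 ± 0.21), and lost its call without WT no-Trp replicate 1. Of 18 selenoprotein genes 3 were negative, namely Gpx1, Msrb1 (-0.86) and Dio1. Dio1, which activates thyroid hormone, stood at 84.2 to 134 CPM in WT no-Cys livers, 15.6, 3.96 and 14.1 CPM in KO no-Cys livers, 25.4 and 81.6 CPM in WT no-Trp livers and 56.9 to 133 CPM in KO no-Trp livers, a difference of -3.83 ± 0.64 (adjusted p = 0.00131).

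Most enzymes of cholesterol synthesis had a negative difference. Of 21 enzymes of the pathway, 15 had a negative and none a positive difference, beside 3.03% of all genes with a negative call, and 20 of the 21 values were below 0. The median difference was -1.28. Unlike the ISR and OSR lists, it was built from both diets, with a median genotype effect of -0.84 without cysteine and 0.49 without tryptophan, although no enzyme was called in the no-Trp comparison alone. Nsdhl (ENSMUSG00000031349, chrX:72918557-72958514, plus strand), which removes carbon-4 methyl groups from sterols, was at 19.9 to 25.7 CPM in WT no-Cys livers, 6.65, 5.58 and 6.04 CPM in KO no-Cys livers, 9.52 and 5.45 CPM in WT no-Trp livers and 12.1 to 20.7 CPM in KO no-Trp livers. WT was above KO on the no-Cys diet and below KO on the no-Trp diet, without overlap on either (difference -3.13 ± 0.35, adjusted p = 3.22e-05).

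The sterol reductase Tm7sf2 had the same order, with 81.4 to 97.6, 31.9 to 39.6, 44.0 and 48.7, and 65.3 to 89.1 CPM in the same groups, and a difference of -2.02 ± 0.23. Fdps, farnesyl diphosphate synthase, differed by -3.10 ± 0.52, Msmo1 by -2.27 ± 0.43, Cyp51 by -1.99 ± 0.43 and Ebp by -1.07 ± 0.14 (adjusted p = 0.000132). Idi1, at 0.536 to 4.73 CPM over the 14 libraries, had the largest negative value of the pathway, -3.32 ± 0.73. Hmgcs1, the synthase that makes HMG-CoA, was less stable at -1.40 ± 0.41 (adjusted p = 0.0448), called in 5 of 14 fits with a library left out. The count of called enzymes was 10 without WT no-Trp replicate 1 and 11 without WT no-Trp replicate 2, with medians of -1.51 and -1.07, and limma-voom called 8.

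SREBP2, the factor that drives these genes when sterols are low, binds sterol regulatory elements, and the form TCACNCCAC was in 346 of 32851 promoters (1.05%) and in 1 of 16 of these enzymes with a promoter in the table, Hmgcs1. Its stretch is printed as an example of such an element in a gene with a negative difference, on the gene's strand with the match in capitals and no annotated exon in the window.
Hmgcs1, chr13:119690169-119690267, plus strand: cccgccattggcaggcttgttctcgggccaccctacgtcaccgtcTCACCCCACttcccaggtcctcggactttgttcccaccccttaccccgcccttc
The 3 motifs searched can share a promoter, and 130 of 32851 held more than 1 of them.

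Of 18 regulators and carriers of sterols, 7 were negative, 1 positive and 10 not called, beside 3.03% of all genes negative and 3.32% positive. The negative count was 4 without WT no-Trp replicate 1, without WT no-Trp replicate 2 or without KO no-Cys replicate 3, and also 4 with limma-voom and under library totals alone. The negative genes included Srebf2 itself (-0.86), its retention factor Insig1 (-1.82 ± 0.37), the sterol carrier Stard4 (-2.08 ± 0.26), Apoc1 and Lrp1. Apoc1 was called in 3 of 14 fits with a library removed and not under library totals alone, where the list median of -0.17 became 0.02. Stard4 was at 73.6 to 93.6 CPM in WT no-Cys, 27.1, 23.8 and 31.3 CPM in KO no-Cys, 44.2 and 52.7 CPM in WT no-Trp and 54.4 to 84.7 CPM in KO no-Trp livers. The positive gene was Soat2, which esterifies cholesterol for storage, with 46.0 ± 3.75 CPM (SD, n = 4) in WT and 106 ± 31.7 CPM (n = 3) in KO on the no-Cys diet, and 46.8 ± 0.732 (n = 2) and 44.4 ± 8.15 CPM (n = 5) on the no-Trp diet (1.29 ± 0.25). Gramd1c, of a family of sterol transporters of the endoplasmic reticulum, was also positive (1.67 ± 0.19, adjusted p = 3.22e-05), with 71.7, 113 and 112 CPM in KO no-Cys livers and 28 to 39.5 CPM in the other 11. In fatty acid synthesis the median difference was -0.01, and 3 of 23 genes were negative, beside 3.03% of all genes, namely Elovl3 (-2.41 ± 0.53), Fads1 (-1.15 ± 0.19) and Acss2 (-0.92).

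**Figure D3:**
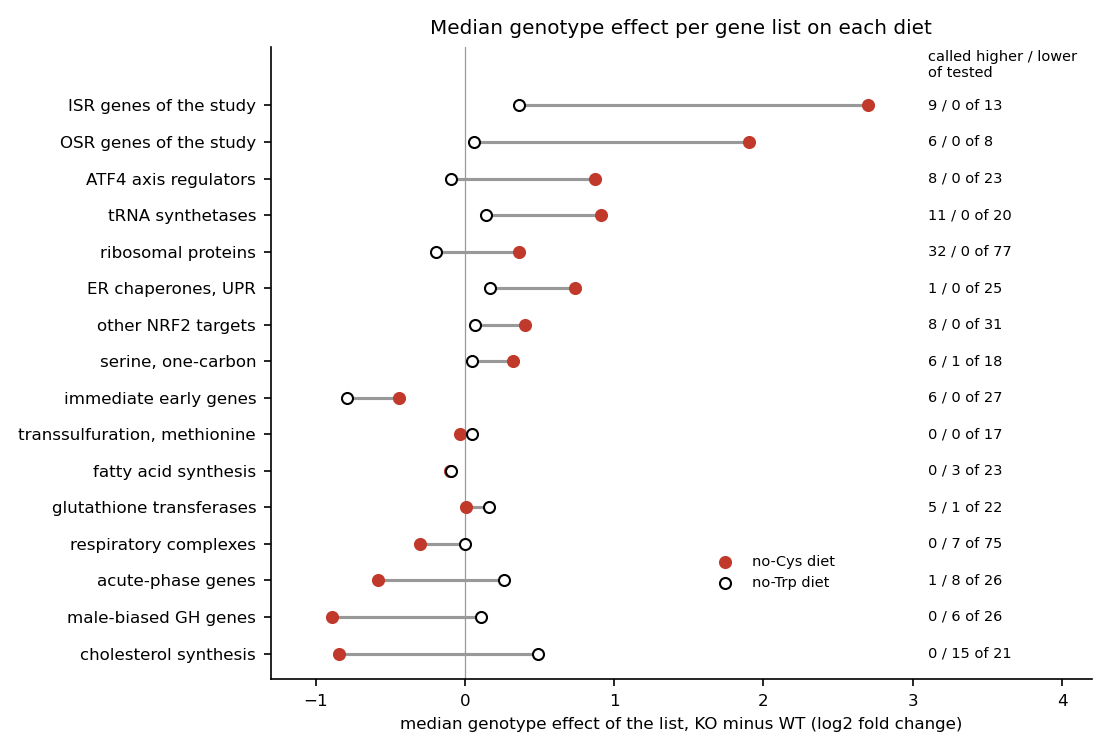
For each gene list the filled point is the median KO-minus-WT log2 fold change on the no-Cys diet and the open point that on the no-Trp diet, joined by a line, with the number of genes called higher and lower for the difference beside it. The ISR and OSR lists differ through the no-Cys value, 2.70 against 0.36 and 1.90 against 0.06, whereas the cholesterol list has medians of -0.84 and 0.49 on opposite sides of 0.

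The largest negative differences among the named genes belonged to acute-phase proteins, which the liver secretes during inflammation. Of 26 tested, 8 were negative and 1 positive, beside 3.03% and 3.32% of all genes, with a median of -0.68. Saa2, a serum amyloid A, was at 3950, 415, 278 and 60.5 CPM in WT no-Cys livers, 4.17, 4.67 and 9.06 CPM in KO no-Cys livers, 6.71 and 21.2 CPM in WT no-Trp livers and 27.9 to 275 CPM in KO no-Trp livers. The WT no-Cys livers spanned a wide range above all but 1 of the others, and the difference was -10.29 ± 2.15 (adjusted p = 0.00698). The related Saa1 differed by -8.98 ± 1.91, and both lost their call without WT no-Trp replicate 1.

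Orm1 and Orm2 encode orosomucoids. Orm1 was more even, at 2670, 1380, 1280 and 929 CPM in WT no-Cys, 373, 248 and 257 CPM in KO no-Cys, 529 and 381 CPM in WT no-Trp and 425 to 596 CPM in KO no-Trp livers, a difference of -2.57 ± 0.41 (adjusted p = 0.000957). Orm2 (-5.48 ± 1.22), Saa3 (-4.16 ± 1.16), Saa4 (-2.08 ± 0.49), haptoglobin Hp (-1.68 ± 0.42) and Steap4 (-1.25) completed the negative genes. Steap4 was called in 3 of 14 fits with a library removed and Saa3 in 9, and limma-voom called 3 negative genes. The list's count of 8 was 2 without WT no-Trp replicate 1 and 5 without KO no-Cys replicate 3. Socs3, which dampens cytokine signalling, was the positive gene (1.67 ± 0.40). It was highest in the WT no-Trp livers, at 60.2 and 26.9 CPM, beside 7.78 to 17.8 CPM in the other 12, and was not called without WT no-Trp replicate 1. The summed level of 15 Kupffer and leukocyte markers was 124 to 215 CPM in WT no-Cys, 120 to 164 in KO no-Cys, 238 to 260 in WT no-Trp and 183 to 280 CPM in KO no-Trp livers, and its part in these values was not tested.

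Complement C9, a secreted protein, was at 469 to 552 CPM in WT no-Cys, 64.3, 35.5 and 76.6 CPM in KO no-Cys, 168 and 288 CPM in WT no-Trp and 164 to 280 CPM in KO no-Trp livers, a difference of -3.08 ± 0.39 (adjusted p = 0.000121). Of 26 male-biased genes under growth hormone and STAT5, 6 were negative and none positive, with a median of -1.19, beside 3.03% of all genes: the growth hormone receptor Ghr (-1.26 ± 0.19), Igfals, the urinary proteins Mup3 (-1.43 ± 0.29) and Mup20, Elovl3 and complement C6. Mup genes are near-identical copies, so their separate values are uncertain. The count was 3 without WT no-Trp replicate 1 and 12 without replicate 2. In the respiratory complexes, 7 of 75 nuclear genes were negative and none positive, with a median of -0.32, beside 3.03% of all genes called negative, among them Ndufa1 (-0.85) and Atp5k (-1.06). Library totals alone gave 3 negative genes and a median of -0.13, limma-voom 4 and DESeq2 13. All 3 KO no-Cys livers lay below the other 11 in 33 of the 75, beside 5.46% of all genes, and the count was 2 without KO no-Cys replicate 3.

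Single genes outside these lists complete the extremes. On the positive side they were the keratin gene Krt23 (3.63 ± 0.69), the contactin-associated protein gene Cntnap1 (3.48 ± 0.61), the guanine nucleotide exchange factor gene Arhgef2 (2.77 ± 0.54) and the growth regulator Cgref1 (2.76 ± 0.64). Krt23 had 20.5, 29.6 and 23.8 CPM in KO no-Cys livers against 0.467 to 2.02 CPM in WT no-Cys livers, and 3.15 and 6.35 CPM in WT against 2.50 to 13.3 CPM in KO livers without tryptophan. On the negative side they were Chrna4, a nicotinic receptor subunit (-4.92 ± 1.16), the water channel gene Aqp8 (-3.37 ± 0.59), Fam25c (-3.28 ± 0.47), Dct (-3.08 ± 0.53), Tlcd2 (-2.66 ± 0.30) and Dbi, which encodes the acyl-CoA binding protein (-2.15 ± 0.24). Arhgef2 lost its call without WT no-Trp replicate 1, Cgref1 without WT no-Trp replicate 2 or KO no-Cys replicate 3, and Chrna4 without KO no-Cys replicate 3.

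For several of these the WT no-Cys livers were the high ones. Fam25c was at 25.1 to 58.0 CPM in WT no-Cys livers and 2.14 to 11.8 CPM in the other 10. Chrna4 was at 2.82 to 7.61 CPM there and at 0.0953 to 1.01 CPM in the other 10. Dbi was at 621 to 800 CPM in WT no-Cys, 177, 167 and 159 CPM in KO no-Cys, 315 and 374 CPM in WT no-Trp and 271 to 457 CPM in KO no-Trp livers. The KO no-Cys livers lay below the no-Trp groups and the WT no-Cys livers above them.

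Immediate early genes, which respond within minutes to growth and stress signals, had a pattern of their own. Of 27 tested, 6 were positive and none negative, beside 3.32% of all genes, but their median genotype effect was below 0 on both diets, -0.44 without cysteine and -0.79 without tryptophan. Nr4a1, an orphan nuclear receptor and the largest positive difference of all named genes (4.68 ± 0.98, adjusted p = 0.00702), was at 0.934 to 4.96 CPM in WT no-Cys, 1.24, 1.95 and 3.66 CPM in KO no-Cys, 101 and 7.47 CPM in WT no-Trp and 1.19 to 2.93 CPM in KO no-Trp livers. The high value was that of WT no-Trp replicate 1, without which the difference was 1.79 and not called. Irs2, the insulin receptor substrate of the liver, had 38.5 and 3.14 CPM in these 2 livers, and its difference went from 2.99 (adjusted p = 0.0228) to 0.26 without that library. The median of the list became -0.24 without WT no-Trp replicate 1, and 2 genes were called, Klf10 and Gadd45a, so the direction of this list depends on that library.

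The same difference can be read by diet. In KO livers 2000 genes (13.9%) differed between the no-Cys and no-Trp diets, 1030 higher (7.17%) and 970 lower (6.75%) without cysteine, and in WT livers 23 genes (0.16%) did, 12 higher (0.0835%) and 11 lower (0.0765%). For the ISR genes of the study the median diet value, no-Cys minus no-Trp, was 1.98 in KO and -0.35 in WT, and for the OSR genes 1.86 and -0.12. For cholesterol synthesis it was -0.70 in KO and 0.70 in WT. These comparisons use the same 14 libraries as the difference and add no separate evidence for it.

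The 2 genotype effects share no library, and 20 genes were called in both, all in the same direction, 8 higher and 12 lower in KO. They were 0.493% of the no-Cys calls and 71.4% of the no-Trp calls. The lower genes included the targeted gene Cth itself and Gm43314, which overlaps it. Across the 14370 genes the effects had a Pearson correlation of 0.31 and a Spearman correlation of 0.30, a description over genes, which are not replicates. Cd36, a fatty acid transporter, was at 112 to 190 CPM in KO and 16.1 to 22.1 CPM in WT livers without cysteine, and at 75.6 to 152 and 13.4 to 31.5 CPM without tryptophan, with a difference of 0.61 ± 0.44 (adjusted p = 0.467). Scd1, the main desaturase of the liver, was lower in KO on both diets (-4.24 ± 0.61 and -2.85 ± 0.52), and the tetraspanin Cd9 was lower to a similar extent (-1.51 ± 0.29 and -1.48 ± 0.29). These 3 genes were named after their values were seen. The difference itself was called for 4 of the 20, beside 6.35% of all genes: Asns, Cyp2a5 (0.82 ± 0.20), Tmem98 (-1.79 ± 0.44) and Tmem19 (-0.81 ± 0.15).

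**Figure D4:**
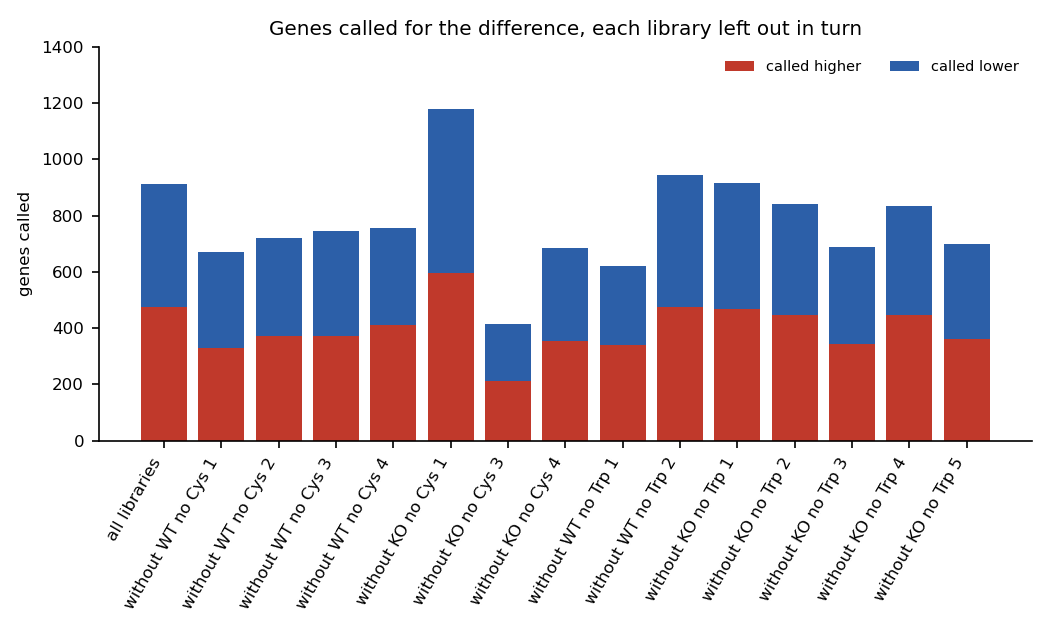
Bars give the number of genes called for the difference, higher in red and lower in blue, with all libraries and again after removal of 1 of the 14 libraries at a time. The count of 912 ranges from 416 without KO no-Cys replicate 3 to 1179 without KO no-Cys replicate 1, with near-equal numbers in each direction.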

How the data were processed

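Poly(A) RNA from male mouse livers was sequenced by the study, and per the submitters' processing notes HISAT2 2.1.0, HTSeq 0.11.0 and the build GRCm38 were used. The deposited values are raw counts per Ensembl gene, made by the authors, whose strand setting is not given in the sources used here; 1 column matched no sample and was not used. Of 46078 gene IDs, 45229 were in GENCODE M21, which gave symbols and coordinates, and no row named something other than a gene. Titles number the libraries as biological replicates but name no animal, so p-values measure the spread between these libraries.

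Counts of all 21 libraries were filtered with filterByExpr (minimum count 10, total 15), leaving 14370 genes, scaled by TMM and fitted in a one-way model of 6 groups with edgeR 4.0.16 (glmQLFit, R 4.3.3). Each contrast was tested two-sided and adjusted by Benjamini-Hochberg over all genes, with a threshold of 0.05; SE is the log2 value over the root of F. Alternatives were DESeq2 1.42.0, limma 3.58.1 voom with quality weights, other scalings, no filter, the 14 libraries alone, a replicate block and each library left out. On simulated counts of 14370 genes for the difference, 22% of 100 genes changed by 1 (log2) and 76% of 100 changed by 2 were recovered, and 3 of 13979 unchanged genes were called. The simulated spread of a gene was the same in all groups, whereas the 2 WT no-Trp libraries lay further apart than the pairs of other groups. These rates may therefore not hold for the real data.

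Genes named are Cth, the 12 largest differences each way and the next 6 of lowest adjusted p among called genes of average log2 CPM over 2 with a symbol (no predicted genes), the ISR and OSR genes of the study, and from each of the other lists the genes called or, where none was, up to 3 of lowest p. The comparison and the 45 lists were chosen with earlier results of these data known. Promoters are RefSeq sequences of GRCm38.p6. Some genes that this rule names are not reported here.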

Additional observations from a re-analysis of the deposited data

Results flagged for a closer look

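Genotype effects that differed between the 2 diets numbered 912, of which 477 were positive and 435 negative, tested by the contrast of the no-Cys and no-Trp genotype effects in edgeR.

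In 94 groups of 4 or 5 libraries, 2 for each of 47 genes, 8 held a library set apart from the rest by Dixon's criterion, which chance meets in about 1 of 20 groups. WT no-Cys replicate 1 held 3950 CPM of Saa2 against 60.5 to 415 CPM in the other 3, and 105 CPM of Saa3 against 6.1 to 15.8 CPM. KO no-Trp replicate 1 held 275 CPM of Saa2 against 27.9 to 59.2 CPM, 978 CPM of Saa1 against 81.1 to 138 CPM, and 10.4 CPM of Irs2 against 3.17 to 3.9 CPM. WT no-Cys replicate 4 held 6.95 CPM of Irs2 against 5.13 to 5.41 CPM. KO no-Trp replicate 4 held 2.17 CPM of Arhgef2 against 3.82 to 4.35 CPM, and KO no-Trp replicate 5 held 7.98 CPM of Gdf15 against 1.65 to 3.02 CPM.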

How the results depend on the processing

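No named gene with a called difference (170) changed sign under the alternatives run. The 912 genes of the difference became 553 with limma-voom, of which 531 were among the 912, and 416 to 1179 with 1 library left out, lowest without KO no-Cys replicate 3 and highest without KO no-Cys replicate 1. The 4055 genes of the no-Cys genotype effect ranged from 2358 to 4321 with 1 library left out. The 28 genes of the no-Trp genotype effect became 123 with DESeq2, 6 with limma-voom and 101 with no filter on low counts, and 14 to 230 with 1 library left out. The 23 genes of the WT diet comparison became 143 with DESeq2, 0 with limma-voom, 50 with no filter and 15 with the 4 groups alone, and 9 to 64 with 1 library left out. The 2000 genes of the KO diet comparison became 3204 with limma-voom and 570 to 2214 with 1 library left out. The cause of these changes was not tested. Of 170 called named genes under 7 other settings, 1029 of 1190 values kept their call and 161 lost it.

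The main fit did not pair samples by replicate number. Deviations of same-numbered libraries correlated at -0.235 to 0.419. Of the 6 pairs numbered 1, 5 correlated at 0.251 to 0.419, and whether those libraries share a factor was not tested. With a replicate block the difference gave 630 genes, 591 of them among the 912, and the KO diet comparison 1302. The 2 WT no-Trp libraries limit the difference, the no-Trp genotype effect and the WT diet comparison, and the lowest counts of the no-Cys genotype effect and the KO diet comparison with a library removed came without KO no-Cys replicate 3.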

Other observations

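In other lists of liver functions, each called share lay above the 6.35% of all genes, in lists too small to set apart from it. There were 2 negative of 22 in nitrogen and urea metabolism, 2 of 20 in tryptophan and NAD metabolism and 2 of 19 in bile acid metabolism. The citrate cycle held 1 positive and 1 negative of 18, and 35 cytochromes P450 held 2 of each. Otc, the ornithine transcarbamylase of the urea cycle, was at 359 to 429 CPM in WT no-Cys, 223, 118 and 167 CPM in KO no-Cys, 366 and 387 CPM in WT no-Trp and 326 to 410 CPM in KO no-Trp livers (difference -1.18 ± 0.22, adjusted p = 0.0036). Haao, of tryptophan breakdown to NAD, differed by -0.79 ± 0.14, the bile acid ligase gene Slc27a5 by -0.94 ± 0.20, the isocitrate dehydrogenase gene Idh1 by -0.96 ± 0.17 and the vitamin D hydroxylase gene Cyp2r1 by -1.79 ± 0.35. Each of these 5 genes was called whichever library was left out.

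Of 15 genes of coenzyme A, which takes its thiol from cysteine, 1 was positive, 2 negative and 12 not called, beside 6.35% of all genes called. Enpp3 differed by -1.15 ± 0.28. Pank3, a pantothenate kinase of the entry step, was at 57.6 to 78.8 CPM in WT no-Cys and 53.1, 32.6 and 39.7 CPM in KO no-Cys livers (-0.89 ± 0.21), and Ppcdc, which decarboxylates the cysteine adduct, was at 15.1 to 19.7 and 32.8 to 37.2 CPM (0.71 ± 0.21). Pank3 and Enpp3 lost their calls without KO no-Cys replicate 3 or WT no-Trp replicate 2, and Ppcdc was called in 2 of 14 fits with a library removed. Of 34 proteasome genes, 1 was positive, Psmd4 (0.44 ± 0.12), and 2 negative, beside 6.35% of all genes called. The immunoproteasome subunit genes Psmb8 (-1.41 ± 0.35) and Psmb10 (-1.03 ± 0.22) were negative, and neither was called without WT no-Trp replicate 1.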
